A study of Mus musculus with 20 samples.

Results

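Expression of 10 circadian clock genes was described in cultured mouse cortical neurons: the period genes Per1, Per2 and Per3, the cryptochromes Cry1 and Cry2, the activator Clock, the nuclear receptor repressors Nr1d1 and Nr1d2, the output factor Dbp and the repressor Bhlhe40. They were taken by symbol from the deposited tables, where 10 of 10 were present, out of 14700 symbols in all. The primary neurons came from embryonic day 15 cortices and were grown for 7 days, and each of the 4 groups below had 5 libraries of total RNA, described as biological replicates. The N_WT and OGD_WT groups were wild type, and in N_KO and OGD_KO the circular RNA ciRS-7 was knocked out. The tables list its gene under the symbol Cdr1as. All 20 libraries carried the same strain label, C57BL/6N-Cdr1asem1Nikr. Medium was changed in every culture at the start of the 12 h treatment. N cultures received glucose at 25 mM and pyruvate at 0.2 mM and went back to the incubator. OGD cultures were deprived of oxygen and glucose to model ischemia in the dish. They received neither addition and were kept at 1% oxygen. Each culture was sampled at 1 time, so levels are described here and no rhythm can be read from them.

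In the mammalian clock, CLOCK pairs with BMAL1 (listed as Arntl) and drives genes that carry an E-box, among them the Per and Cry genes. PER and CRY proteins return to inhibit that pair, while the REV-ERB receptors, encoded by Nr1d1 and Nr1d2, repress Arntl and compete with ROR activators. DBP drives genes that carry a D-box, and BHLHE40 (DEC1) competes for E-boxes and is also known as a gene induced by hypoxia. In cultured cells these loops run without an external light cycle and are known to be reset by a change of medium, by glucocorticoids and by other signals.

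Promoter sequence is shown for 4 of the genes because it carries the elements through which clock factors are known to act, the E-box of Per1 and Cry1, the D-box of Per3 and a related E-box in Nr1d1. The sequences are from RefSeq (build GRCm38.p6, the same assembly as the mm10 build named in the submitters' processing notes) and run from 250 bases before to 50 bases after an annotated start, 5′ to 3′ on the gene's strand. Entries matched 8 of the 10 genes, with 11 starts, and Per2 and Bhlhe40 were not matched. Capitals mark CACGTG (E-box), CACGTT (a noncanonical E-box), TTATGTAA (D-box), TGACGTCA (CRE) and the ROR/REV-ERB element, each searched on both strands.
Per1, upstream start, chr11:69098699-69098998, plus strand: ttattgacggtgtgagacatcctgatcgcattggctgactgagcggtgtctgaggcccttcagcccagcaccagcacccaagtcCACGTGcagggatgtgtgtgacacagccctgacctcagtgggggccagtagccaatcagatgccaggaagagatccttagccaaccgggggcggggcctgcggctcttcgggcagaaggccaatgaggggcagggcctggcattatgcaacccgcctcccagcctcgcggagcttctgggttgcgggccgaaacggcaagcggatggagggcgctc
Cry1, chr10:85185005-85185304, minus strand: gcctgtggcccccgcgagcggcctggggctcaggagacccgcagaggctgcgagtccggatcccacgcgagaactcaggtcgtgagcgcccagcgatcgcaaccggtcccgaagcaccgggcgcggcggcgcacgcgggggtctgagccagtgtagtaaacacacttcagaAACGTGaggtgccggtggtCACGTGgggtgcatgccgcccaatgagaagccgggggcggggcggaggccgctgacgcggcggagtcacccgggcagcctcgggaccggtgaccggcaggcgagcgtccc
Per3, chr4:151044616-151044915, minus strand: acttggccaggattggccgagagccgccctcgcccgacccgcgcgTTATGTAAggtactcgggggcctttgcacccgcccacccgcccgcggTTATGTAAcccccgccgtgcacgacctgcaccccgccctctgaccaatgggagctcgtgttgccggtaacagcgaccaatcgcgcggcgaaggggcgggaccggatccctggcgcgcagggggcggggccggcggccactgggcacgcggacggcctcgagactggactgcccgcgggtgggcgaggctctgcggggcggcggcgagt
Nr1d1, chr11:98775328-98775627, minus strand: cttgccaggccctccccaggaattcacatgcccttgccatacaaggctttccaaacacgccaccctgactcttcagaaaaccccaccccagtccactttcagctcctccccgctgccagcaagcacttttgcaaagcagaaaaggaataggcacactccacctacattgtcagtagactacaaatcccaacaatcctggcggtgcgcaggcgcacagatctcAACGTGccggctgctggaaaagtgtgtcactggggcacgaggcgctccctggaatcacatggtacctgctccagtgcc

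The upstream Per1 start held CACGTG at -166 from the start, and Cry1 held CACGTG at -60 and CACGTT at -79. Per3 held TTATGTAA at -205 and again at -158, and Nr1d1 held CACGTT at -28. Cry2 held CACGTT at -166. The starts listed for Clock, Nr1d2 and Dbp held none of these 5 motifs, and no start held TGACGTCA or the ROR/REV-ERB element. Among all 32851 promoters of this length, 7.15% held CACGTG, 4.68% CACGTT, 0.938% TTATGTAA, 1.79% TGACGTCA and 0.384% the ROR/REV-ERB element. The core of the hypoxia response element, ACGTG or GCGTG, overlaps both E-box forms and occurred in 43.8% of promoters. A match describes the letters of the window and is not a measured binding site.

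The values compared are log2 CPM (a gene's counts relative to library size, on a log2 scale), with the authors' clipping of extreme values undone as described under processing. Recovered counts per library ranged from 7071506 to 16658617. Cdr1as checked the genotype labels, with 700 to 1365 counts per N_WT library and 545 to 1912 per OGD_WT library, against 5 to 16 in N_KO and 2 to 14 in OGD_KO. The labels place cultures in batches 1, 2, 3.1, 3.2 and 3.3, and the N and OGD cultures of 1 number share a batch.

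The replicate 3 libraries stood apart. For genes averaging 5 to 200 counts, the counts of each library were compared with the weighted sum of the other 4 libraries of its group that came nearest. The median squared deviation, divided by the predicted count, was 0.297 for N_WT replicate 3, 0.317 for OGD_WT replicate 3 and 0.397 for N_KO replicate 3, where counting noise of an independent library alone gives 0.455. It was 0.518 for OGD_KO replicate 3 and between 0.773 and 2.22 for the other 16 libraries. Replicate 3 was the highest or lowest of its group for 10.1% to 21.8% of these genes, and replicate 1 for 25.8% to 28.7%, where 5 exchangeable libraries give 40%. Across genes, the deviations of the N and OGD libraries of replicate 3 from their group means ran in opposite directions, with correlations of -0.731 in WT and -0.781 in KO. Libraries that lie this close to the others of their group add less independent information. That alone makes p-values with 5 per group too small. Between genotypes, though, fewer genes had an unadjusted p under 0.05 than that level itself gives, as stated below. Changes of the clock genes under OGD are also given without replicate 3. Between genotypes, and for other genes of the clock, counts of called genes are given without it. Replicates 1, 3 and 5 were each the only culture of their batch within a genotype. Replicate 5 did not share the pattern, with deviations of 1.232 to 2.017 and an extreme value for 45.9% to 55.5% of genes. The cause was not tested.

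OGD libraries also held more counts of a few RNAs. The mitochondrial ribosomal RNA mt-Rnr2 took 10.1% to 16.4% of the counts in normoxia and 13.8% to 32.0% under OGD. The authors' scaling leaves the median gene nearly unchanged by OGD (log2 fold change of all genes -0.03 in WT and 0.00 in KO), so each change below is relative to the median gene. Scaling to library totals instead moved the median gene by -0.27 in WT and -0.28 in KO.

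Under OGD, 8 of the 10 clock genes rose in WT cultures and none fell (adjusted p under 0.05, limma, Benjamini-Hochberg over all genes). Of all 14235 genes tested, 21.6% were called higher and 22.8% lower. The groups did not overlap for 6 of the 10 genes, with OGD above normoxia, against 13.9% of all genes. In KO cultures 8 of 10 also rose and none fell, where 21% of all 14375 genes were called higher and 19.9% lower. There 5 did not overlap, against 13.4% of all genes. The median log2 fold change of the 10 genes was 0.82 in WT and 0.75 in KO. Bhlhe40 rose most in both genotypes, followed by Nr1d1. Cry2 was called in neither genotype, Per3 was not called in WT and Clock was not called in KO. In bulk RNA, a change per cell and a change in the number of cells that express a gene cannot be told apart.

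**Figure D1:**
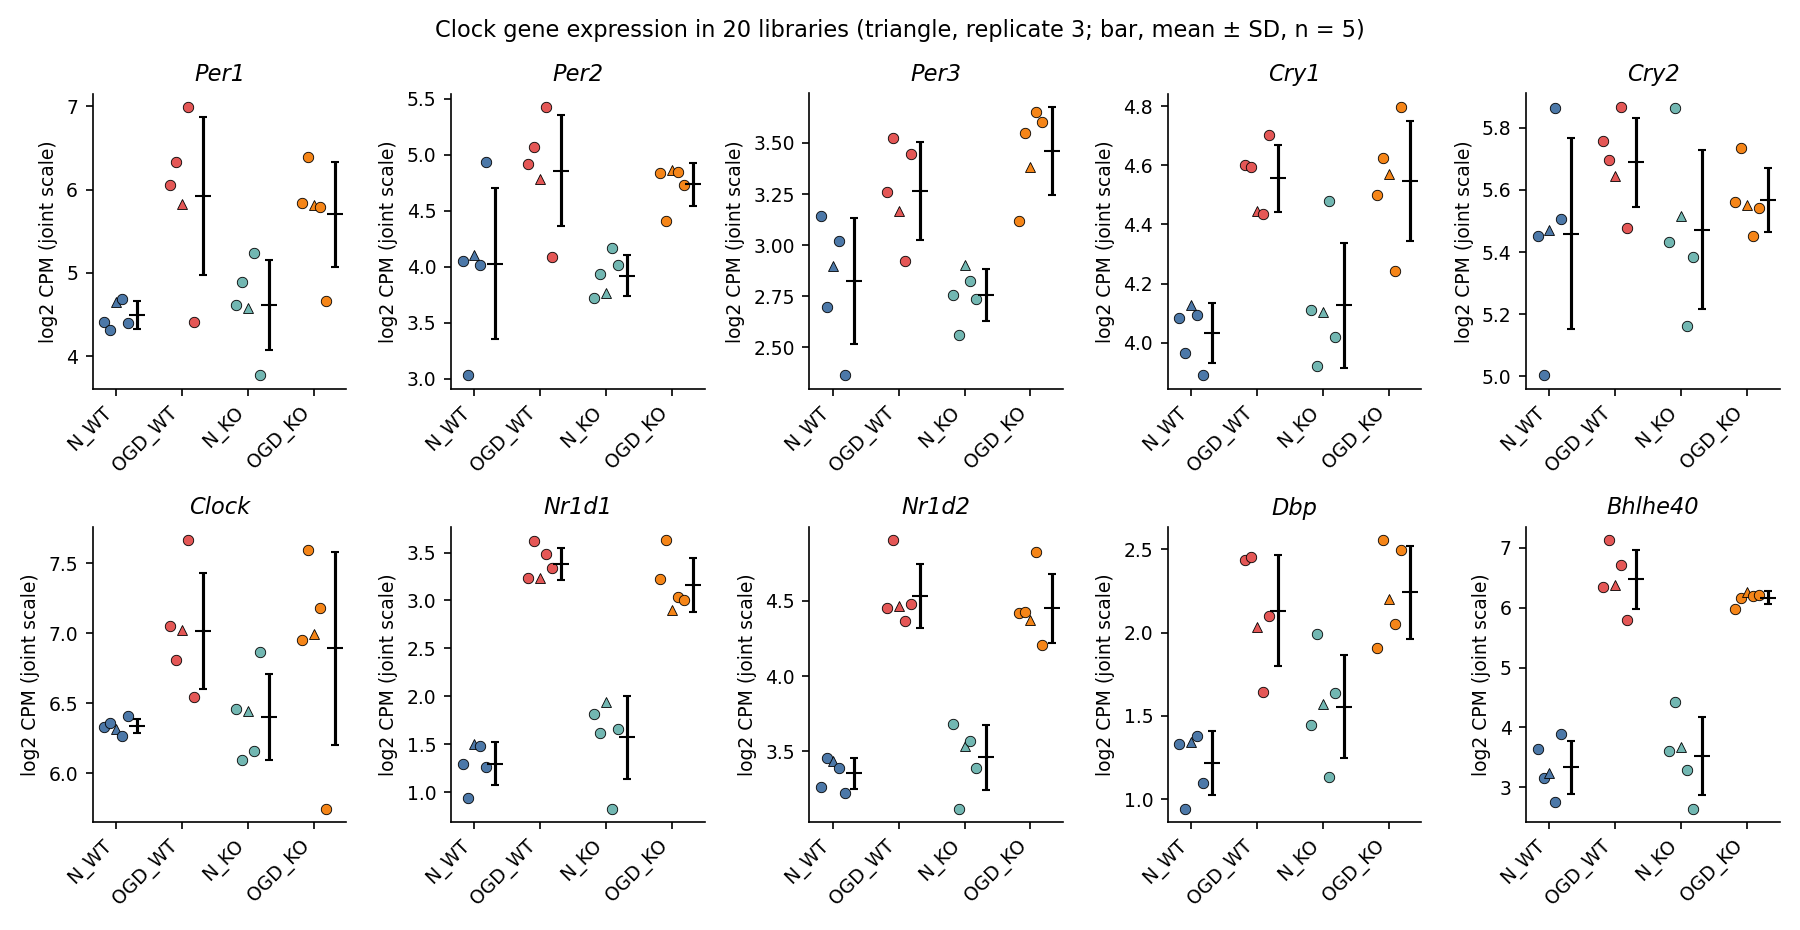
Expression of the 10 clock genes in the 20 libraries as log2 CPM on a joint scale set by size factors. Points are libraries (triangles, replicate 3), and the black bars beside them give the mean ± SD of 5 libraries. For Nr1d1, Nr1d2 and Bhlhe40 every OGD library lies above every normoxia library of the same genotype, while the Cry2 groups overlap.

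Per1 encodes the period protein whose transcription answers fastest to outside signals in many cell types. The 5 N_WT libraries, replicates 1 to 5, were at 4.45, 4.36, 4.69, 4.7 and 4.42 log2 CPM and the OGD_WT libraries at 6.06, 6.33, 5.82, 6.99 and 4.45. Replicate 5 under OGD stayed within the normoxia range, and the other 4 OGD libraries lay above all of it. In KO the N_KO libraries were at 4.6, 4.88, 4.56, 5.21 and 3.77 and the OGD_KO libraries at 5.83, 6.4, 5.8, 5.78 and 4.65. Again replicate 5 under OGD overlapped normoxia while the other 4 exceeded every N_KO library. Per1 rose by 1.41 on the log2 scale in WT (SE 0.29, 2.65-fold, adjusted p 4.46e-04) and by 1.09 in KO (SE 0.27, 2.12-fold, adjusted p 0.00342), higher in 5 of 5 replicate numbers in each genotype. Without replicate 3 the changes were 1.47 (adjusted p 1.13e-04) and 1.05 (adjusted p 0.00936).

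Per2, the partner period gene, was at 4.09, 3.09, 4.14, 4.04 and 4.95 in N_WT and 4.93, 5.08, 4.79, 5.43 and 4.12 in OGD_WT. These groups overlapped, because N_WT replicate 5 lay above 3 of the OGD libraries and OGD_WT replicate 5 lay below 2 of the normoxia libraries. In KO the groups were separate, at 3.72, 3.94, 3.76, 4.15 and 4.02 in N_KO and 4.83, 4.43, 4.85, 4.83 and 4.72 in OGD_KO. The rise of Per2 was 0.81 in WT (SE 0.25, adjusted p 0.0133) and 0.82 in KO (SE 0.14, adjusted p 1.96e-04), and it was 0.85 (adjusted p 0.0133) and 0.75 (adjusted p 0.00585) without replicate 3. With the replicate number as a block the WT change was not called (adjusted p 0.0622), nor was it without replicate 2 (0.51, adjusted p 0.131) or without replicate 4 (0.66, adjusted p 0.113).

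Per3, a period gene that the core loop can do without, was the lowest of the family per length in every group. The N_WT libraries were at 3.2, 2.77, 2.96, 3.07 and 2.44 and the OGD_WT libraries at 3.29, 3.55, 3.2, 2.96 and 3.49, and the groups overlapped. The KO libraries did not overlap, at 2.78, 2.61, 2.92, 2.84 and 2.77 in N_KO and 3.14, 3.58, 3.39, 3.65 and 3.61 in OGD_KO. Per3 rose by 0.69 in KO (SE 0.15, adjusted p 0.00103, and 0.75 with adjusted p 0.00726 without replicate 3). In WT the difference was 0.41 (SE 0.17, adjusted p 0.0533) and was not called, nor was it without replicate 3 (0.46, adjusted p 0.118). Over the 16 alternatives run it lay between 0.15 and 0.58, with adjusted p from 5.76e-05 to 0.504, and it was called in 4 of them. The lowest adjusted p came from library weights, a fit that stopped before convergence. The other calls were with clipping kept (adjusted p 0.0109), with size factors (adjusted p 0.0455) and without replicate 4 (adjusted p 0.0231). Kept clipping narrows the spread within groups, which makes the p-values of that fit too small.

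The cryptochromes are the main inhibitors of CLOCK and BMAL1, and they differed in whether a change was called. Cry1 was at 4.12, 4.01, 4.17, 4.12 and 3.92 in N_WT and 4.61, 4.6, 4.46, 4.45 and 4.73 in OGD_WT, with every OGD library above every normoxia library. In KO, N_KO was at 4.11, 3.93, 4.09, 4.46 and 4.02 and OGD_KO at 4.5, 4.64, 4.56, 4.23 and 4.79, and the replicate 4 libraries caused the only overlap. Cry1 rose by 0.50 in WT (SE 0.14, 1.42-fold, adjusted p 0.00474) and by 0.42 in KO (SE 0.15, 1.34-fold, adjusted p 0.0284). Without replicate 3 the WT change was 0.56 (adjusted p 0.0315), and the KO change was 0.41 and no longer called (adjusted p 0.13). The KO call was also lost without replicate 1 (adjusted p 0.0974), 2 (adjusted p 0.087) or 5 (adjusted p 0.0887) and with the replicate number as a block (adjusted p 0.0759). Scaled to library totals, the Cry1 change was 0.23 in WT (adjusted p 0.199) and 0.14 in KO (adjusted p 0.444).

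Cry2 was at 5.48, 5.03, 5.5, 5.88 and 5.52 in N_WT and 5.76, 5.7, 5.65, 5.87 and 5.5 in OGD_WT. The KO libraries were at 5.41, 5.85, 5.49, 5.14 and 5.37 in N_KO and 5.55, 5.74, 5.53, 5.43 and 5.53 in OGD_KO. Its groups overlapped in both genotypes. The log2 difference was 0.21 in WT (SE 0.15, interval of 2 SE from -0.10 to 0.52, adjusted p 0.275) and 0.11 in KO (SE 0.15, interval from -0.19 to 0.40, adjusted p 0.593), and scaled to library totals it was -0.06 and -0.18. Without replicate 3 it was 0.23 (adjusted p 0.434) and 0.12 (adjusted p 0.69).

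Clock, the activator that pairs with BMAL1, was at 6.36, 6.38, 6.34, 6.28 and 6.42 in N_WT, the narrowest spread of any of these genes in that group (SD 0.05), and at 7.05, 6.81, 7.02, 7.66 and 6.56 in OGD_WT. No library overlapped, and Clock rose by 0.67 (SE 0.17, 1.59-fold, adjusted p 0.00289, and 0.66 with adjusted p 0.0175 without replicate 3). In KO, N_KO was at 6.44, 6.08, 6.41, 6.13 and 6.84 and OGD_KO at 6.93, 7.6, 6.98, 7.16 and 5.73. Replicate 5 went the other way, with the highest N_KO value and the lowest of all OGD_KO values, from 313 counts. The difference over all 5 KO replicates was 0.50 (SE 0.25, adjusted p 0.12), it was 0.48 without replicate 3 (adjusted p 0.21), and without replicate 5 it was 0.90 (adjusted p 2.74e-05). OGD_KO replicate 5 was also the library with the most mt-Rnr2 counts, 32.0%. The part of that share in the Clock value was not tested.

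Both REV-ERB genes rose in both genotypes. Nr1d1 was at 1.44, 1.13, 1.64, 1.6 and 1.41 in N_WT and 3.26, 3.64, 3.27, 3.51 and 3.38 in OGD_WT. In KO it was at 1.89, 1.72, 2.0, 0.99 and 1.76 in N_KO and 3.24, 3.66, 2.93, 3.06 and 3.03 in OGD_KO. The OGD libraries lay above all normoxia libraries by a wide margin in each genotype, from 15 to 48 counts per library in normoxia (17 to 33 in N_WT) to 46 to 152 under OGD (86 to 141 in OGD_WT). Nr1d1 rose by 1.97 in WT (SE 0.16, 3.92-fold, adjusted p 5.38e-09) and by 1.51 in KO (SE 0.20, 2.85-fold, adjusted p 9.96e-06), and by 2.05 (adjusted p 1.97e-09) and 1.66 (adjusted p 1.08e-05) without replicate 3.

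Nr1d1 lies on chromosome 11 (98767932 to 98775333, minus strand) and shares 263 exonic bases, 8.55% of its exons, with Thra on the opposite strand (GENCODE mouse release 21). The library kit keeps the strand, but whether counting used it is not stated, so the Nr1d1 level is uncertain to that extent. Thra had 7656 to 11277 counts per N_WT library, against 17 to 33 for Nr1d1, and its own difference was -0.33 in WT (adjusted p 0.194) and -0.10 in KO (adjusted p 0.787).

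Nr1d2, the second REV-ERB gene, was at 3.32, 3.51, 3.48, 3.42 and 3.27 in N_WT and 4.46, 4.91, 4.48, 4.38 and 4.51 in OGD_WT. In KO it was at 3.68, 3.14, 3.54, 3.56 and 3.4 in N_KO and 4.42, 4.44, 4.37, 4.81 and 4.21 in OGD_KO. Neither genotype had an overlapping library. The rise of Nr1d2 was 1.15 in WT (SE 0.14, 2.22-fold, adjusted p 2.36e-06) and 0.99 in KO (SE 0.15, 1.98-fold, adjusted p 5.91e-05), and without replicate 3 it was 1.19 (adjusted p 2.52e-05) and 1.02 (adjusted p 5.86e-04).

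Dbp, the D-box activator whose transcript is a common readout of clock output, had 15 to 55 counts per normoxia library. It was at 1.48, 1.13, 1.49, 1.51 and 1.25 in N_WT and 2.49, 2.51, 2.11, 1.74 and 2.19 in OGD_WT, without overlap. The KO libraries were at 1.55, 2.06, 1.66, 1.26 and 1.73 in N_KO and 1.99, 2.62, 2.26, 2.11 and 2.54 in OGD_KO, where N_KO replicate 2 just exceeded OGD_KO replicate 1. Dbp rose by 0.84 in WT (SE 0.18, 1.78-fold, adjusted p 7.85e-04) and by 0.65 in KO (SE 0.18, 1.57-fold, adjusted p 0.00803), and by 0.89 (adjusted p 0.00408) and 0.66 (adjusted p 0.0352) without replicate 3. Scaled to library totals the KO change of Dbp was 0.40 and was not called (adjusted p 0.0839). Its exons on chromosome 7 (45705088 to 45710203, plus strand) share 539 bases, 18% of their length, with Sphk2 on the opposite strand. Sphk2 had 62 to 125 counts per N_WT library, against 15 to 34 for Dbp. Since use of strand in counting is not stated, the Dbp level and change are uncertain to that extent. The Sphk2 difference was -0.58 in WT (adjusted p 0.0111) and -0.39 in KO, where it was not called (adjusted p 0.0614).

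Bhlhe40 had the largest change. It was at 3.68, 3.21, 3.29, 2.8 and 3.92 in N_WT and 6.34, 7.12, 6.38, 6.72 and 5.81 in OGD_WT, from 70 to 178 counts per library in normoxia to 551 to 1474 under OGD. In KO it was at 3.61, 4.42, 3.66, 3.29 and 2.67 in N_KO and 5.97, 6.16, 6.25, 6.18 and 6.2 in OGD_KO. No library overlapped, and the SD was 0.11 in OGD_KO against 0.63 in N_KO. Bhlhe40 rose by 3.09 in WT (SE 0.22, 8.54-fold, adjusted p 5.63e-10) and by 2.62 in KO (SE 0.22, 6.15-fold, adjusted p 8.44e-08), and it rose by 3.09 and 2.63 without replicate 3 (adjusted p 3.04e-13 and 4.97e-08). Ordered by rise among all genes, Bhlhe40 was number 17 of 14235 in WT and number 35 of 14375 in KO, and Nr1d1 was number 96 and number 188. Fold changes here are of CPM plus the authors' prior count, which was inferred to be between 3.56 and 4.96 counts and makes the change of low genes such as Nr1d1 and Dbp appear smaller.

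**Figure D2:**
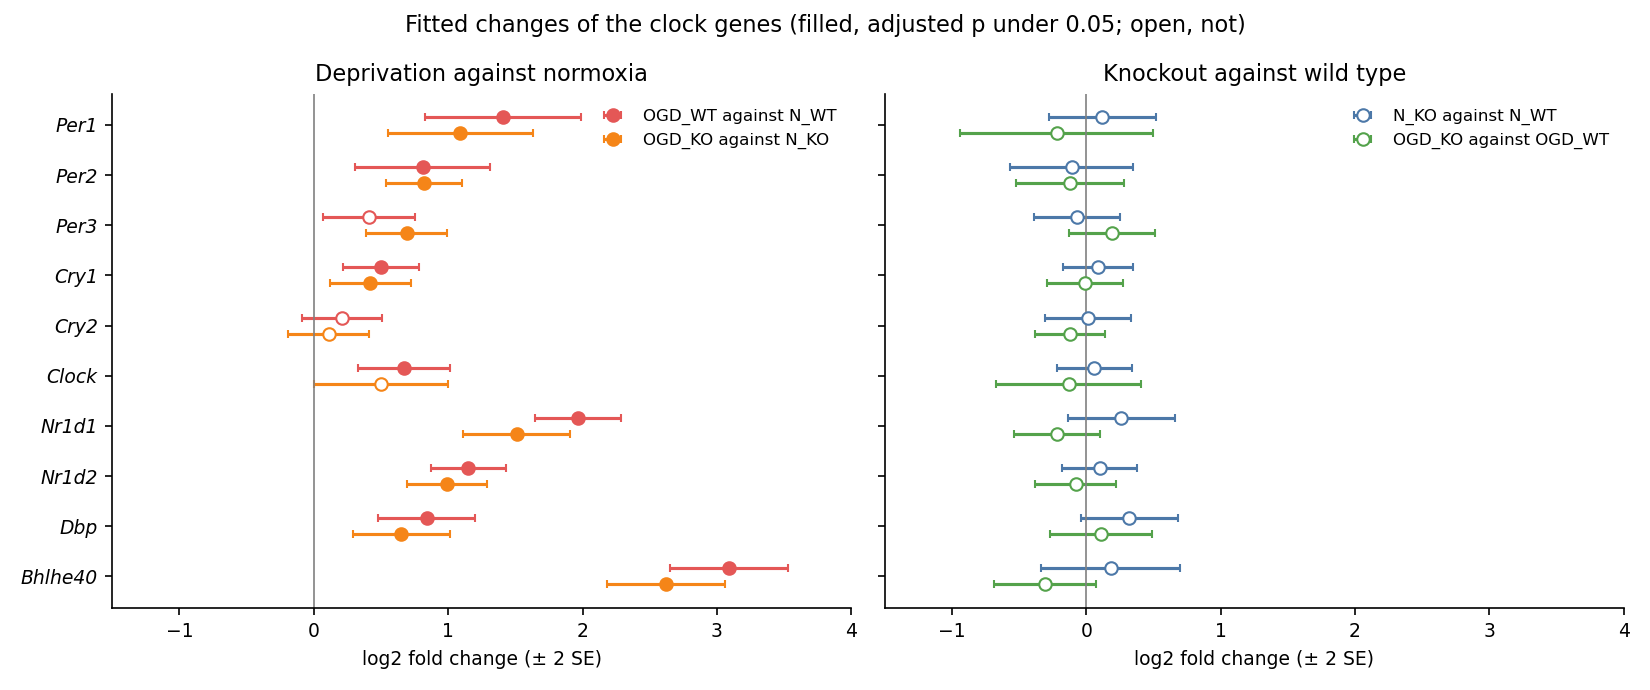
Fitted log2 fold change ± 2 SE of each clock gene. Left, OGD against normoxia in WT and in KO, where 8 of 10 points per genotype are filled (adjusted p under 0.05), all to the right of 0. Right, KO against WT in normoxia and under OGD, where no point is filled.

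Without replicate 3 in both groups, 8 of the 10 genes were called in WT and 7 in KO, while the share of all genes called higher fell to 14.9% and 14.3%. Leaving out replicate 1 as well left 3 libraries per group, and 5 genes were called in each genotype, where 8.01% (WT) and 8.28% (KO) of all genes were called higher. Those were Per1, Nr1d1, Nr1d2 and Bhlhe40 in both genotypes, with Per2 in WT and Per3 in KO. The median of the 10 log2 fold changes was then 0.85 in WT and 0.81 in KO, and 10 of 10 were above 0 in each. Per1, Nr1d1, Nr1d2 and Bhlhe40 were called in both genotypes under each of the 16 alternatives run for each OGD comparison. Of these, the fit within batch 3 holds the same libraries as the fit without replicate 1 in WT and as the fit without replicates 1 and 3 in KO, so it adds no separate evidence. Within batch 3 alone, 8 genes were called in WT (4 cultures) and 5 in KO (3 cultures). In either direction, 2341 of all 14375 genes were called there in KO. In WT, fits without 1 replicate, of which this is 1, called 4313 to 6993 of 14235. No value came from batch 1 or batch 2 alone, since neither has more than 1 culture of a genotype. Scaled to library totals, 5 genes were called in WT (Per1, Nr1d1, Nr1d2, Dbp and Bhlhe40) and 6 in KO (Per1, Per2, Per3, Nr1d1, Nr1d2 and Bhlhe40). With that scaling 7392 of all 14235 genes were called in WT and 6799 of 14375 in KO. Of those calls 22.1% (WT) and 22.0% (KO) were higher, against 48.6% and 51.3% with the authors' scaling.

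**Figure D3:**
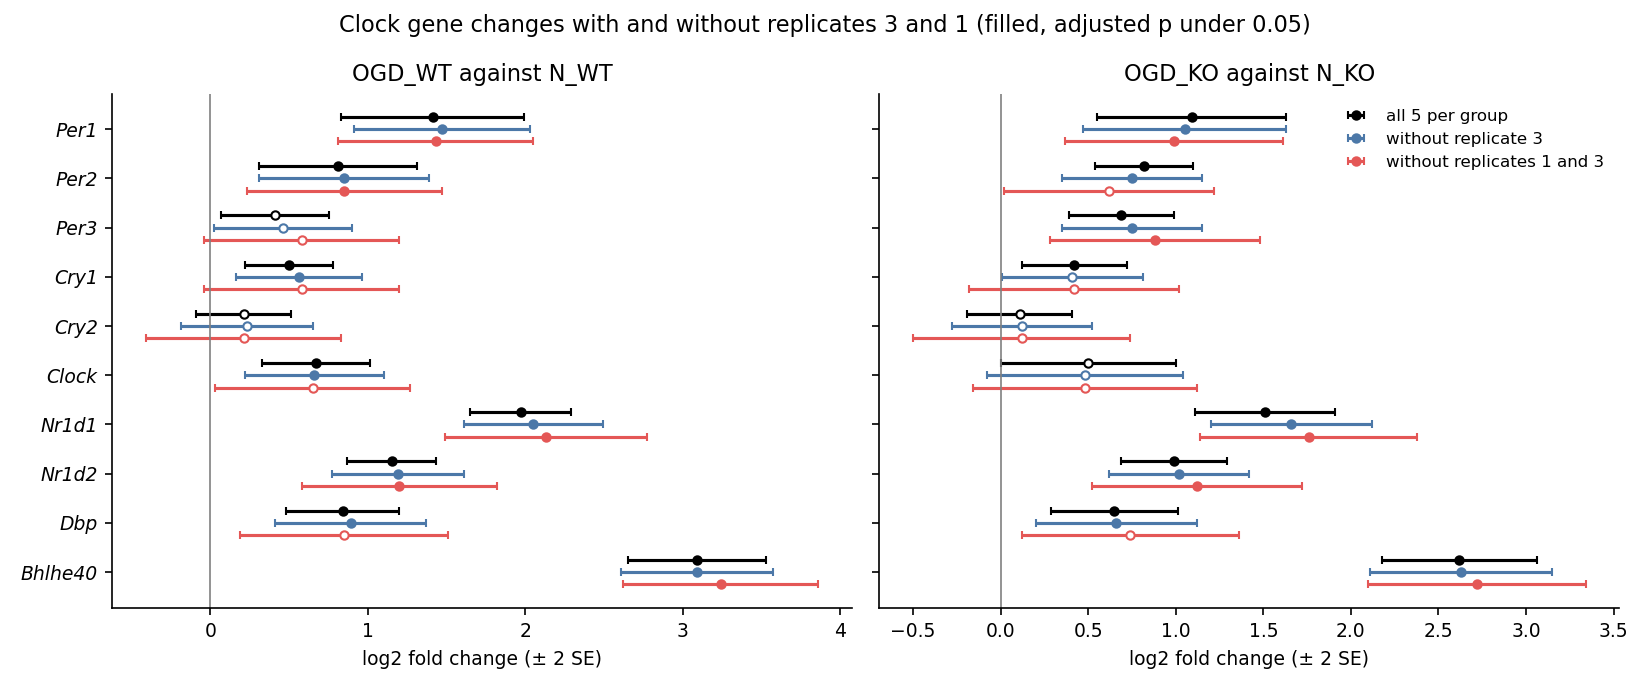
Log2 fold change ± 2 SE under OGD with all 5 libraries per group (black), without replicate 3 (blue) and without replicates 1 and 3 (red), in WT (left) and KO (right). Filled points passed an adjusted p of 0.05. The estimates move little, while the intervals widen as libraries are left out and only 5 genes per genotype keep filled red points.

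Knockout of ciRS-7 was compared with wild type within each condition. In normoxia 0 of the 10 clock genes were called, with log2 differences of KO minus WT from -0.11 (Per2) to 0.32 (Dbp). Of all 14152 genes, 0.0353% were called. Under OGD 0 of 10 were called, with differences from -0.31 (Bhlhe40) to 0.19 (Per3), where 0.0282% of all 14185 genes were called. None of the 10 had an unadjusted p under 0.05 in either comparison (limma), a level that 1.81% and 1.78% of all genes reached. With no difference in any gene, a share of 0.05 would reach it. Both shares lay below that, but the calibration of these tests was not tested. The lack of calls is weak evidence of no difference. For Bhlhe40 under OGD the interval of 2 SE ran from -0.70 to 0.08, and for Dbp in normoxia from -0.04 to 0.67, so differences of that size are not excluded. Without the replicate 3 libraries the count was again 0 in both conditions.

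Whether the knockout altered the response to OGD was tested as an interaction over the 13688 genes present in all tables. Called genes numbered 0 of 10 and 0% of all genes, and 0.731% of all genes had an unadjusted p under 0.05. That share is again below the level itself, so the lack of calls is weak evidence of an equal response. The response in KO minus that in WT was -0.49 for both Nr1d1 (SE 0.30, interval of 2 SE from -1.08 to 0.11) and Bhlhe40 (SE 0.37, interval from -1.23 to 0.26), and it was highest for Per3 (0.28, SE 0.25, interval from -0.22 to 0.77). The value was below 0 for 8 genes, 0.00 for Per2 and above 0 for Per3, and every interval of 2 SE included 0. Clock in KO and Per3 in WT missed the threshold for OGD, and neither was shown to differ between genotypes, with interactions of -0.18 (SE 0.36) and 0.28 (SE 0.25). Without the replicate 3 libraries the interaction was -0.44 for Nr1d1 (SE 0.36), -0.50 for Bhlhe40 (SE 0.44), -0.22 for Clock (SE 0.43) and 0.26 for Per3 (SE 0.32), and again 0 of 10 were called.

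Members of 1 family were compared with each other inside each library, as the log2 ratio of their values. Nr1d1 over Nr1d2 was at -1.96 ± 0.24 (SD, n = 5) in N_WT and -1.14 ± 0.16 in OGD_WT, a difference of 0.82, and the exact permutation p was 0.00794, the smallest that 5 against 5 libraries allow, or 0.0794 adjusted over the 10 ratios tested (two-sided). In KO the same ratio went from -1.79 ± 0.46 to -1.27 ± 0.36, a difference of 0.53 (exact permutation p 0.0635). Per1 over Per3 differed by 0.99 in WT (exact permutation p 0.0635) and 0.39 in KO (exact permutation p 0.357), and Cry1 over Cry2 by 0.29 (exact permutation p 0.111) and 0.32 (exact permutation p 0.175). The Nr1d1 over Nr1d2 ratios in WT did not overlap, at -2.38 to -1.82 in N_WT and -1.27 to -0.87 in OGD_WT. None of the 10 ratios passed an adjusted p of 0.05, but a single ratio at the smallest exact p could not have passed either, so these ratios are given as values. Without replicate 3 the Nr1d1 over Nr1d2 ratio changed by 0.87 in WT and 0.64 in KO, Per1 over Per3 by 1.02 and 0.30, and Cry1 over Cry2 by 0.33 and 0.29.

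Levels of different genes were set side by side per length, as log2 CPM on a joint scale per kilobase of annotated exon. The length covers all annotated exons of a gene. Which transcripts were expressed was not determined, so the order depends on the annotation. In N_WT, Cry2 was highest at 2.80 ± 0.31 (SD, n = 5), followed by Clock at 2.56 ± 0.05, Cry1 at 2.29 ± 0.10, Per1 at 2.00 ± 0.16, Per2 at 1.48 ± 0.67, Bhlhe40 at 1.10 ± 0.44 and Nr1d2 at 0.92 ± 0.10. Nr1d1 (-0.33 ± 0.23), Dbp (-0.36 ± 0.19) and Per3 (-0.44 ± 0.31) formed the lower end, with overlapping ranges. Neighbours in this order overlapped except Clock and Cry1, and Nr1d2 and Nr1d1. In OGD_WT, Bhlhe40 was first at 4.24 ± 0.49, followed by Per1 at 3.43 ± 0.95 and Clock at 3.24 ± 0.41, and Per3 was last at 0.00 ± 0.24. There the only neighbours without overlap were Nr1d1 (1.76 ± 0.17) and Dbp (0.55 ± 0.33). OGD_KO had the same first 3 genes, with Bhlhe40 at 3.93 ± 0.11, Per1 at 3.21 ± 0.63 and Clock at 3.11 ± 0.69, and N_KO began like N_WT with Cry2 at 2.81 ± 0.26 and Clock at 2.62 ± 0.31.

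A list of 28 other genes of the clock gave 26 in each of the OGD tables, of which 11 were called higher, 5 lower and 10 not called in WT, and 11, 5 and 10 in KO. Of all genes 21.6% were called higher and 22.8% lower in WT, and 21% and 19.9% in KO, so the share of the list called lower was near that of all genes. Their median log2 fold change was 0.30 in WT and 0.25 in KO. Without replicate 3 the counts were 9 higher and 3 lower in both genotypes, where 14.9% and 15.4% of all genes were called higher and lower in WT and 14.3% and 13.7% in KO. Without replicates 1 and 3 they were 9 and 2 in WT (8.01% and 8.93% of all genes) and 6 and 1 in KO (8.28% and 8.01%). Arntl, the BMAL1 gene and partner of Clock, named here after its values were seen, differed by 0.17 in WT (SE 0.24, adjusted p 0.596) and 0.14 in KO (SE 0.16, adjusted p 0.499).

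Among the repressors, Ciart (CHRONO, which binds the CLOCK and BMAL1 pair) rose by 2.94 in WT (SE 0.19, adjusted p 1.68e-10) and by 2.78 in KO (SE 0.24, adjusted p 1.01e-07). Bhlhe41, the paralog of Bhlhe40, rose by 2.11 in WT (adjusted p 1.64e-08) and by 1.76 in KO (adjusted p 5.12e-07). Both had every OGD library above every normoxia library. Among activators, Npas2, a substitute for Clock, fell by 1.47 in WT (adjusted p 8.75e-07) and by 1.28 in KO (adjusted p 1.99e-04), the opposite direction to Clock in WT. The ROR genes moved in opposite directions, with Rora up by 1.98 in WT (adjusted p 1.43e-06) and 1.99 in KO (adjusted p 1.65e-07), and Rorb at -0.50 in WT (adjusted p 0.0316) and -0.63 in KO (adjusted p 0.00539).

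Of the D-box factors related to Dbp, Hlf rose by 1.47 in WT (adjusted p 2.85e-07) and 1.26 in KO (adjusted p 0.00165), and Tef by 0.81 (adjusted p 1.19e-04) and 0.71 (adjusted p 0.00113). The Hlf groups overlapped in KO, where replicate 5 went the other way (-0.66). Nfil3, which opposes DBP at the D-box, rose by 1.23 in WT (adjusted p 4.77e-06) and 0.98 in KO (adjusted p 2.80e-04). Activators and the repressor of the D-box therefore moved in 1 direction. Other called genes were the cell cycle kinase Wee1 (1.27 in WT and 1.14 in KO), Nampt of NAD synthesis (1.01 and 0.82) and Klf10 (0.77 and 0.72). The Nampt groups overlapped in both genotypes, with replicate 5 in WT (-0.79) and replicate 4 in KO (-0.07) going the other way. For Klf10 the groups overlapped in WT. Btrc, a ubiquitin ligase component that acts on PER proteins, was lower by -0.81 in WT (adjusted p 4.36e-04) and -0.80 in KO (adjusted p 4.05e-04).

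**Figure D4:**
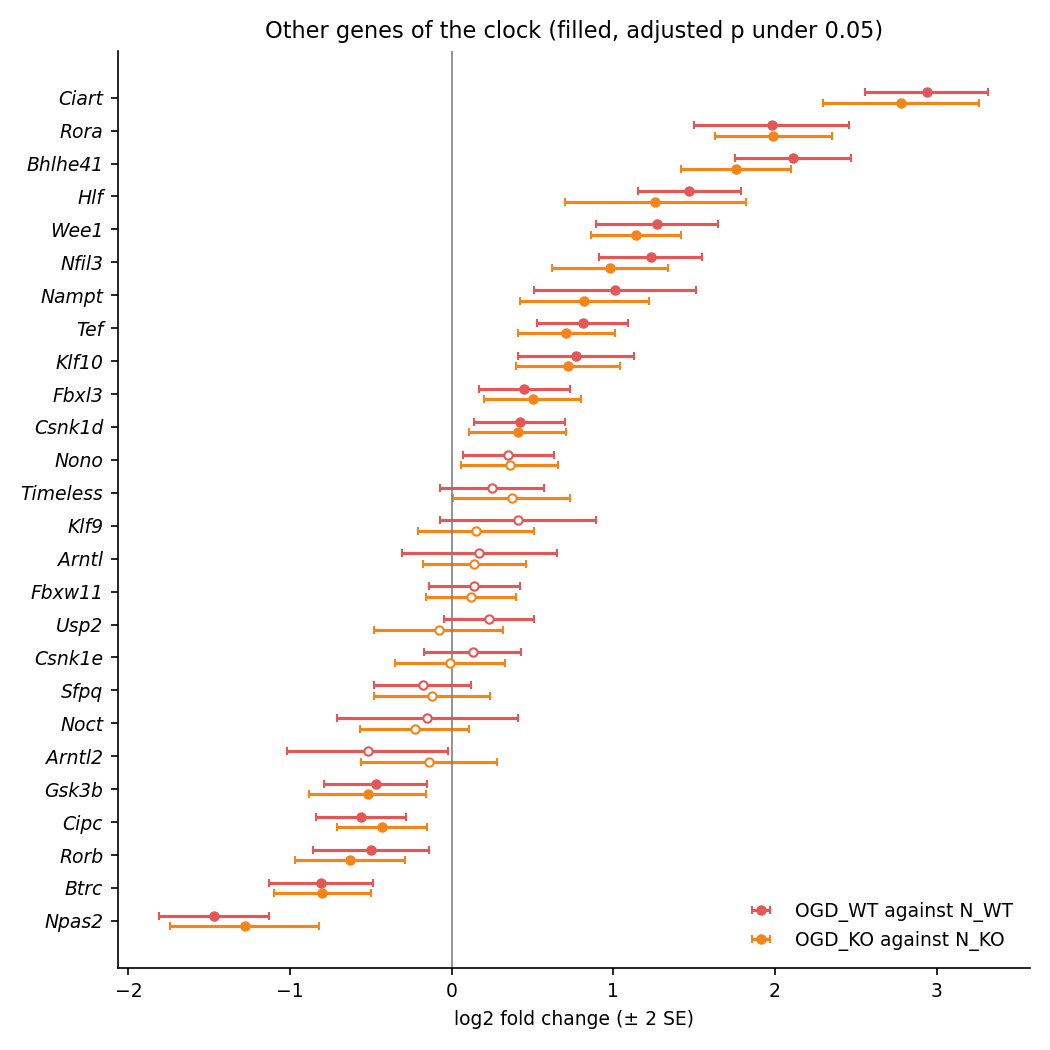
Log2 fold change ± 2 SE under OGD for 26 further clock genes, in WT and in KO, ordered by their mean. Filled points passed an adjusted p of 0.05. Ciart, Rora and Bhlhe41 stand at the upper end and Npas2 at the lower end in both genotypes.

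RNA levels of some cell type markers differed under OGD as well, again beside 21.6% of all genes called higher and 22.8% lower in WT and 21% and 19.9% in KO. Of 9 neuron markers, 0 were called higher and 5 lower in each genotype (median log2 fold change -0.51 in WT and -0.55 in KO), among them Syt1 at -1.21 and -1.46, while Map2 (-0.20 and -0.25) and Rbfox3 (-0.20 and -0.16) were called in neither. The summed level of the neuron list was 12.21 to 12.58 log2 CPM in N_WT and 11.56 to 12.49 in OGD_WT, which overlapped, and 12.34 to 12.39 in N_KO and 11.62 to 12.16 in OGD_KO, which did not. Of 7 astrocyte markers in the tables, 4 were higher and 1 lower in WT and 3 higher in KO. Slc1a3 was among the higher ones at 1.08 and 0.95, Gfap was lower in WT at -0.47, and Aqp4 and Slc1a2 were called in neither genotype. The summed level of the astrocyte list was 10.03 to 10.41 log2 CPM in N_WT and 10.75 to 11.05 in OGD_WT, without overlap, and 9.69 to 10.54 in N_KO and 10.42 to 11.1 in OGD_KO, with overlap. All 5 proliferation genes were higher in both genotypes (medians 1.01 and 1.12). In N_WT the proliferation gene Mki67 was at 8.13 log2 CPM and Slc1a3 at 8.82, beside the neuron marker Snap25 at 8.35. The RNA was therefore not from neurons alone, and which cells changed was not tested. Of 6 oligodendrocyte lineage genes, 2 were lower in WT and 2 higher in KO. The 6 microglia markers were in no table, and of 4 endothelial markers 1, Kdr, was listed, at 0.24 in N_WT and 0.84 in OGD_WT. None of the markers of these lists was called between genotypes. Their part in the changes of the clock genes was not tested.

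Cultures were then compared among themselves, taking for each of the 10 cultures the mean deviation of its N and OGD libraries from their group means. Of the 45 pairs of clock genes, 1 passed an adjusted p of 0.05, Per1 with Clock (Pearson r 0.93, permutation p 4.50e-04, adjusted p 0.0202). Spearman's rho was 0.79 (permutation p 0.00905, adjusted p 0.259). Without the 2 cultures farthest from the median of Per1, WT5 and KO5, r was 0.74. Their mean deviations were -0.79 and -1.04 for Per1 and -0.19 and -0.44 for Clock. For Clock these low means came from the OGD libraries, since in normoxia replicate 5 had the highest Clock value of its group in WT (6.42 log2 CPM) and in KO (6.84). The correlation was 0.95 over the 7 cultures of batch 3 and 0.94 over the 8 cultures without WT3 and KO3. On a scale set by size factors it was 0.92.

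**Figure D5:**
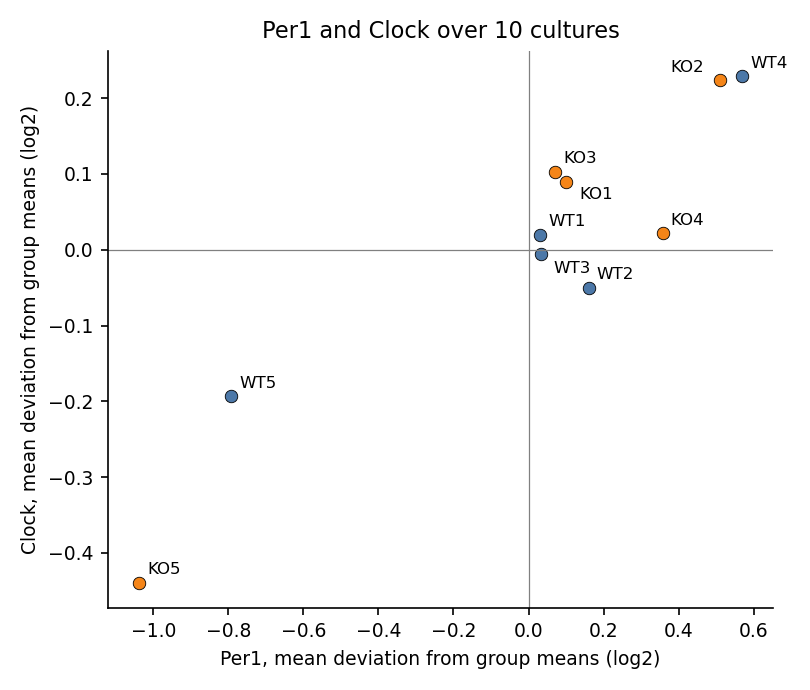
Mean deviation of Per1 (horizontal) and Clock (vertical) from the group means, in log2 units, for the 10 cultures (blue, WT; orange, KO). WT5 and KO5 lie at the lower left, away from the other 8 cultures.

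By correlation over the 20 libraries, which share the OGD and normoxia groups, the genes most like Bhlhe40 among 9384 were Bhlhe41 (0.988), Srf (0.988) and Pfkl (0.982). Those most like Per1 were Mest (0.967), Zfp655 (0.946) and Zdbf2 (0.938), and those most like Dbp were Lrrc1 (0.898), Pold2 (0.857) and Eepd1 (0.855). These correlations describe likeness of pattern on the joint scale and were not tested.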

How the data were processed

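The authors deposited 4 tables, 1 per comparison, of log2 CPM, as the table names and values show. The build is mm10, per the submitters' processing notes, and the aligner, counter, annotation, gene filter, scaling and use of strand are not given in the sources used here. In each gene and group of 5, the extreme values lay where clipping at the 10th and 90th percentile puts them, so this was undone (weights 0.6 and 0.4). Afterwards at least 99.91% of values were whole counts within 0.05, for up to 500 counts, and at least 99.971% of the counts were the same in both tables holding a library. No label states the clipping, and whether these whole numbers are raw reads is not given in the sources used here.

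Each table was fitted with limma 3.58.1 (lmFit and eBayes with trend) in R 4.3.3, and a gene counted as called when its two-sided p, adjusted by Benjamini-Hochberg over all genes of the table, was under 0.05. For the interaction, the recovered counts were made into log2 CPM over all 20 libraries (prior count 2), with the culture as a block (correlation -0.169). Intervals are 2 SE. Correlations used 100000 permutations. Undoing the clipping and the limma fit of a comparison were run on simulated counts of independent libraries. That simulation held no libraries like replicate 3, and the block, interaction, ratios and correlations were not simulated. N and OGD libraries of 1 number share a genotype label and a batch, so the replicate number was also fitted as a block. Their deviations from the group means correlated at -0.781 to 0.081, above 0 only for replicate 4 in WT. They did not behave as positively related pairs.

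The clock genes and gene lists were chosen with earlier results of these data known. The rule for naming other clock genes took the 12 with the largest mean change among those called in either genotype, with Arntl named after its values were seen, and the likeness rule took 3 genes with a mean of at least 3 for each of Per1, Dbp and Bhlhe40. The comparisons without replicates 1 and 3, without the replicate 3 libraries between genotypes, and scaled to library totals were chosen after seeing the data. No deposited column was left unmapped.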

Additional observations from a re-analysis of the deposited data

Results flagged for a closer look

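In 2 of the 40 sets of 5 libraries examined (10 genes in 4 groups), 1 library lay far from the other 4, a number chance alone gives in about 2 of 40. Nr1d2 was at 4.91 log2 CPM in OGD_WT replicate 2, and the other 4 libraries were at 4.38 to 4.51. Nr1d1 was at 0.99 log2 CPM in N_KO replicate 4, against 1.72 to 2.0 in the others. Both genes rose under OGD in every setting that was run.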

How the results depend on the processing

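Per1, Nr1d1, Nr1d2 and Bhlhe40 were called higher under OGD in both genotypes, and Per3 in KO, under all 16 alternatives of each comparison (pseudocount, expression filter, scaling, voom, block, batch, clipping kept, weights and left-out libraries). Among these, batch 3 alone is the same set of libraries as leaving out replicate 1 in WT and replicates 1 and 3 in KO. Of the 10 genes, 5 were called without replicates 1 and 3 in each genotype (in KO also the batch 3 value, 5), and 5 in WT when scaled to library totals. Leaving out 1 replicate gave 7 to 8 calls in WT and 7 to 8 in KO. The same fits called 4313 to 6993 of all 14235 genes in WT and 4025 to 5923 of 14375 in KO, in either direction. With the replicate block, the calls of Per2 in WT and Cry1 in KO were lost, and the block changed no other call. Keeping the clipping narrows the spread within groups and makes p-values too small. That fit added calls for Per3 in WT (adjusted p 0.0109, limma) and Clock in KO (adjusted p 0.00682, limma), so these are not independent support. Library weights, whose fit stopped before convergence and put the 8 highest weights (4.89 to 50.2) on replicate 3, called 10 in WT, 9 in KO and 2 (Per3 at 0.20 and Nr1d1 at -0.27) for KO against WT under OGD. The weighted fits called 12309 of all 14235 genes in WT and 10573 of 14375 in KO. For KO against WT under OGD they called 4757 of 14185, so these calls are not particular to the clock genes.

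Values near 0 that were not called changed sign in places. Scaled to library totals, Cry2 was -0.065 in WT and -0.184 in KO under OGD, and -0.023 for KO against WT in normoxia. For the normoxia comparison of genotypes, batch 3 gave 0.014 for Per2 and -0.021 for Nr1d2, a batch term -0.004 and kept clipping -0.01 for Cry2, library weights -0.045 for Per1 and -0.017 for Cry1, and leaving out replicates 1 and 3 gave 0.045 for Per2 and 0.012 for Per3. Leaving out 1 library gave -0.358 to 0.112 for Per2, -0.106 to 0.106 for Cry2, -0.036 to 0.329 for Per1, -0.038 to 0.402 for Bhlhe40, -0.053 to 0.139 for Clock and -0.188 to 0.007 for Per3. For the comparison of genotypes under OGD (KO against WT), Cry1 was 0.007 in batch 3, 0.007 with clipping kept and 0.114 with weights, where Per2 was 0.062. Leaving out 1 library gave -0.073 to 0.069 for Cry1, -0.309 to 0.022 for Per2, -0.594 to 0.047 for Per1, -0.301 to 0.159 for Clock, -0.174 to 0.006 for Nr1d2 and -0.009 to 0.185 for Dbp. The interaction, leaving out 1 culture, was -0.397 to 0.296 for Per2, -0.157 to 0.047 for Cry1 and -0.429 to 0.27 for Clock. The Per2 over Per3 ratio in KO changed by -0.25 within batch 3 and without replicates 1 and 3, and by -0.03 to 0.28 without 1 replicate. The causes were not tested. Depth was lowest for Nr1d1 and Dbp, with as few as 15 counts in a normoxia library.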
